A study of Mus musculus with 6 samples.

Results

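Serpina3n, a secreted serine protease inhibitor of the acute phase response, and 9 further protease inhibitors or inhibitor relatives were followed in RNA from mouse lens capsules after a model of cataract surgery. Serpina3n was picked because its transcript was very much higher 5 days after surgery than at the time of surgery, and Serpina3g, Serpinf1, Serpinb6a, Serpini1, Slpi, A2m, Cst3, Wfdc1 and Spint2 were set beside it as other inhibitors. The 10 genes are 10 of the 56940 genes listed in each library. In the annotation GENCODE M21, Serpina3n (ENSMUSG00000021091) and Serpina3g (ENSMUSG00000041481) lie on chromosome 12, Serpinf1 (ENSMUSG00000000753) on 11, Serpinb6a (ENSMUSG00000060147) on 13 and Serpini1 (ENSMUSG00000027834) on 3. Slpi (ENSMUSG00000017002) and Cst3 (ENSMUSG00000027447) lie on chromosome 2, A2m (ENSMUSG00000030111) on 6, Spint2 (ENSMUSG00000074227) on 7 and Wfdc1 (ENSMUSG00000023336) on 8. They were chosen by their 5 day and 0 h counts, that is, with the values of the contrast in view, so their fold changes are given as a description, with a standard error (SE) and no p-value.

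The 5 day group held 3 libraries of lens capsules and the epithelial cells on them, taken 5 days after the fiber cell mass was removed. The 0 h group held 3 libraries of capsules taken at the time of that operation. All mice were wildtype C57BL/6, and each library was made from 5 pooled capsules. The second eye was operated on when the first had reached 5 days, so the 0 h capsules came from mice that already carried an operated eye. Nothing in the labels says that pools came from separate mice across the times, and p-values therefore measure the spread between these pools.

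Serpins hold out a flexible loop as bait. A protease that cuts the loop is dragged to the far side of the inhibitor and stays there, distorted and inactive, so each inhibitor molecule works once. Alpha-2-macroglobulin instead closes like a cage around proteases of many classes, and cystatins, Kunitz domains and whey acidic protein domains plug the active site reversibly. In injured tissue these proteins limit the enzymes that leukocytes and activated resident cells release. The 10 genes do not all encode secreted proteins: Serpina3g and Serpinb6a are known as intracellular serpins, and Spint2 is anchored in the cell membrane.

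The gene counts were 6207387 to 8682659 in the 5 day libraries and 7709815 to 9774343 in the 0 h libraries. Levels are given as CPM, the standard unit that divides a count by the library total, after scaling between libraries. Log values correlated at 0.965 to 0.979 between libraries of the same time and at 0.785 to 0.83 across the times. Defining lens markers were present: Cryaa, the alpha-A crystallin of lens, had 11188 CPM at 5 days and 62314 CPM at 0 h, and Foxe3, a transcription factor of lens epithelium, had 82.4 and 211.4 CPM. Other cells were also represented. Summed macrophage and monocyte markers were 583.7 to 826.9 CPM at 5 days and 22.3 to 45.3 CPM at 0 h, with 16 of 16 markers called higher, 11 of which passed the filter on low counts through the 5 day libraries only. Summed photoreceptor markers were 48.5 to 129.2 CPM at 5 days and 613.2 to 916.4 CPM at 0 h, with 13 of 13 tested markers called lower, 5 of which passed that filter through the 0 h libraries only. The minimum of the filter was 1.22 unscaled CPM. A gene passed through 1 time only if all 3 libraries of that time, and not all of the other, reached it. Being kept in this way favours a higher level at that time, so the call of such a gene is no support for a direction. Across all tested genes 25.1% were called higher and 22.5% lower at 5 days. In such bulk samples fewer cells of a type and less RNA per cell cannot be told apart.

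Serpina3n lies in a cluster of closely related genes on chromosome 12, and the upstream sequences of its relatives are shown because the relatives were measured at very different levels from Serpina3n. The sequences are RefSeq promoter windows of build GRCm38.p6, and the counts were made on GRCm39. Of the 10 inhibitors, 8 matched a promoter entry (A2m and Wfdc1 did not), and with 2 windows for Serpinb6a there were 9 windows. Of the 13 relatives of Serpina3n in the cluster, 7 had a window to compare. Serpina3c, which was chosen after its values were seen, shared 229 of 247 aligned bases with Serpina3n (92.7%), the longest alignment among these 7. Capitals mark the bases that differ, and both lines run 5′ to 3′ toward the gene.
Serpina3n, chr12:104406458-104406704, plus strand: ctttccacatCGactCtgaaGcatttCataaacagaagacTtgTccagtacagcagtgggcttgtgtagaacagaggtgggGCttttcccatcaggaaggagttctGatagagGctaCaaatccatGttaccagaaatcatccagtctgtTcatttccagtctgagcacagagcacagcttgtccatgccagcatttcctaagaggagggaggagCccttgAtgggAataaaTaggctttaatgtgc
Serpina3c, chr12:104153873-104154119, minus strand: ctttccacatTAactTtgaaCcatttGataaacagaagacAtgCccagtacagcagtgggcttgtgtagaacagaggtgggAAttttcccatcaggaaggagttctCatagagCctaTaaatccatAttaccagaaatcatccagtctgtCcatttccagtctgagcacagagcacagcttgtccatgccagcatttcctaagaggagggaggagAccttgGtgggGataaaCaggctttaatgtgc

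The upstream sequence of Serpina3g, the other member of the cluster among the 10 inhibitors, aligned with that of Serpina3n over 98 columns, of which 69 were identical (70.4%). Capitals mark bases that differ or have no partner.
Serpina3n, chr12:104406524-104406614, plus strand: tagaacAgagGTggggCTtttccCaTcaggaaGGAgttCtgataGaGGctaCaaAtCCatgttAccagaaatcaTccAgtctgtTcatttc
Serpina3g, chr12:104236051-104236143, plus strand: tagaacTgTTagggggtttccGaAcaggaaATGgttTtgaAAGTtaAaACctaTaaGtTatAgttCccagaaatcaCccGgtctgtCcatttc

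Windows of 300 bases, 250 before and 50 after each start, were searched on both strands for motif letters of factors active in inflammation. The STAT letters TTCNNNGAA were in 2 of the 9 windows, that of Serpina3g and 1 of those of Serpinb6a, and in 8.3% of all 32851 windows. In Serpina3g the match was TTCCCAGAA at -33 to -25 from the start, inside the stretch printed above, and the window of Serpina3n held no match. The C/EBP letters TTGCNNAAT were in 1 of the 9 windows, that of Slpi, and in 2.4% of all windows. The NF-kB motif was in 2 of the 9 windows, those of Serpina3g and Spint2, and in 8.46% of all windows. The AP-1 letters TGANTCA were in none of the 9 windows and in 7.81% of all windows. A match is a run of letters and not a shown binding site.

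Serpina3n was among the genes with the highest CPM in the 5 day capsules. It had 8892, 7695 and 4245 CPM in the 5 day libraries, against 14.3, 11.2 and 15.3 CPM in the 0 h libraries. Every 5 day library was far above every 0 h library, and replicate 3 was the lowest at 5 days. The mean was 6944 ± 2413 CPM at 5 days and 13.6 ± 2.12 CPM at 0 h (SD, n = 3 each). The log2 fold change was 9.0 (SE 0.33), a ratio of 512.

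Counted as reads, Serpina3n had 55871, 61277 and 38767 counts at 5 days and 106, 102 and 128 counts at 0 h. It took 0.9, 0.816 and 0.446% of all gene counts at 5 days. At 0 h it took 0.00137, 0.00104 and 0.00147%. By mean CPM, which is not divided by gene length, it ranked 7 among all genes at 5 days and 7864 at 0 h. Its rise was the 24th largest of 14676 tested genes, and 8 of the 5114 better expressed tested genes (mean log2 CPM of 5 or more) rose more.

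**Figure D1:**
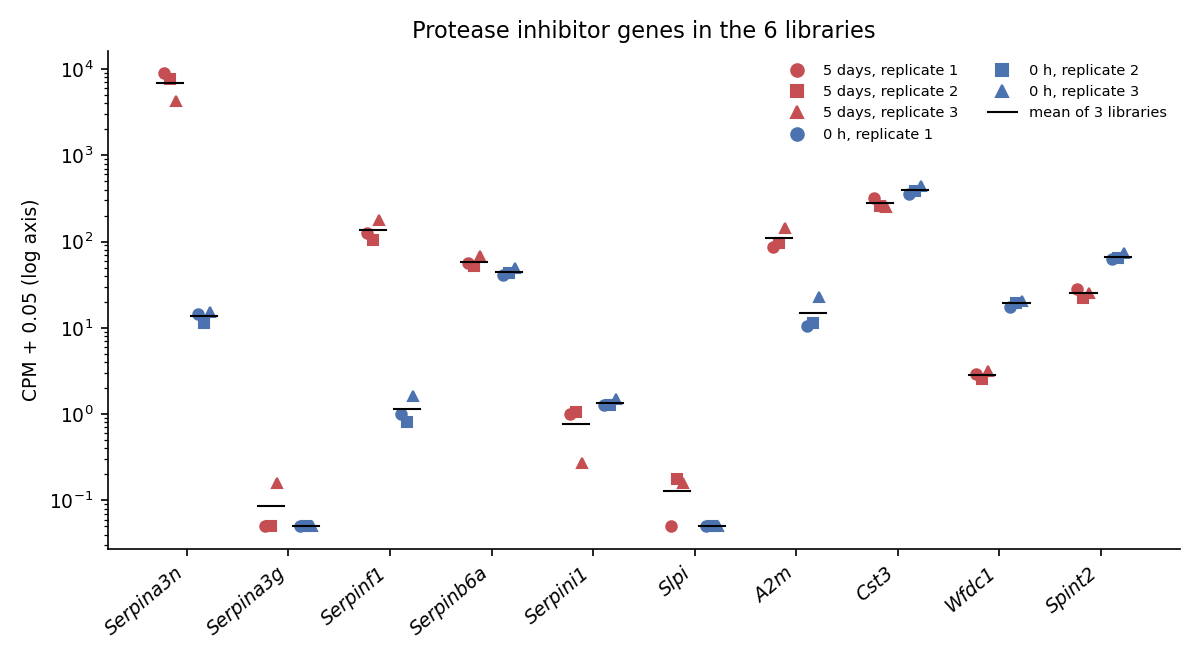
Level of each inhibitor in each library, as CPM + 0.05 on a log axis so that counts of 0 can be drawn, with 5 day libraries left of 0 h libraries and a bar at the mean. The 5 day libraries of Serpina3n sit between 4245 and 8892 CPM and its 0 h libraries between 11.2 and 15.3 CPM, the widest separation of the genes plotted.

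The rest of the Serpina3 cluster gave few reads. Of its 14 genes, Serpina3n took 99.45, 99.55 and 99.5% of the cluster's counts in the 5 day libraries. Serpina3e-ps, a pseudogene on the opposite strand, was next with 300, 265 and 190 counts at 5 days and 0, 0 and 1 count at 0 h. These were 0.537, 0.432 and 0.49% of the Serpina3n count in the same 5 day libraries, and 0.781% in the 0 h library that held its 1 count. The Serpina3e-ps transcript is 85.1% identical to that of Serpina3n with a longest shared run of 103 bases, and counting modes differ in how they place reads between such copies, so the counts of the pseudogene are uncertain. With its counts summed over the libraries of a time and divided by their summed scaled totals, the ratio of 5 days over 0 h was 805. Its 95% exact counting interval was 144 to 31832 (counting error only). The fitted log2 fold change was 9.24 with all libraries and 11.07 without 0 h replicate 3, which held the 1 count.

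The other 12 genes of the cluster had 24 counts in all at 5 days and 0 counts at 0 h, with at most 6 counts in a library. Serpina3c, whose upstream sequence is printed above, had 4, 1 and 0 counts at 5 days and none at 0 h. Serpina3g, an intracellular serpin known to inhibit cathepsins, had 0, 0 and 1 count at 5 days and none at 0 h. The 3 counts that an empty group allows correspond to 0.134 CPM at 5 days and 0.115 CPM at 0 h, so Serpina3g was not measurable at this depth. Of the 12 genes, 6 had no count in any library.

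**Figure D2:**
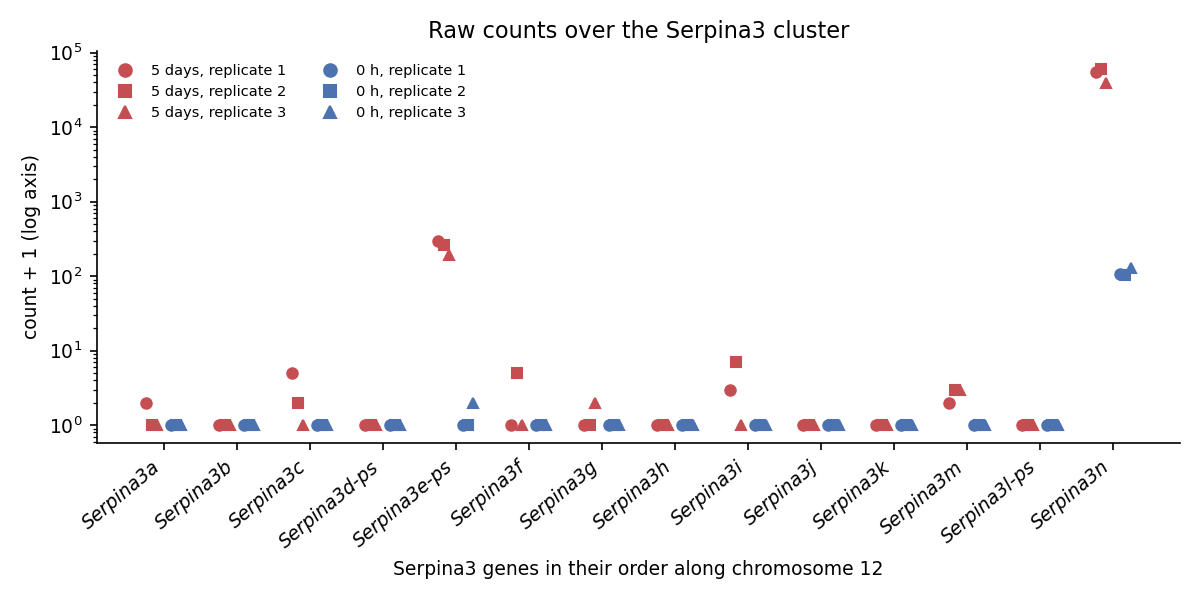
Counts of the genes of the Serpina3 cluster in chromosome order, 5 day libraries left of 0 h libraries, as count + 1 on a log axis, so that 1 on the axis is a count of 0. Serpina3n and Serpina3e-ps stand apart, with 38767 or more and 190 or more counts in each 5 day library, and no other gene passes 6 counts.

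Serpinf1 had the second largest rise of the 10 genes. It encodes pigment epithelium-derived factor, a secreted serpin that inhibits no protease and is known for limiting vessel growth. It had 124, 103.1 and 176.1 CPM in the 5 day libraries, against 0.943, 0.768 and 1.55 CPM in the 0 h libraries. Replicate 3 was the highest at each time, and the groups did not overlap. The means were 134.4 ± 37.6 CPM at 5 days and 1.09 ± 0.41 CPM at 0 h (SD, n = 3 each), with a log2 fold change of 6.94 (SE 0.28). The 0 h values rest on 7, 7 and 13 counts, and Serpinf1 passed the filter on low counts through the 5 day libraries only.

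Serpinb6a, an intracellular serpin that inhibits cathepsin G, differed little between the times. It had 56.2, 51.9 and 67.4 CPM at 5 days, against 41.1, 42.9 and 49.6 CPM at 0 h. The groups came close without overlapping. The log2 fold change was 0.40 (SE 0.13), and it lost its call in 4 of 14 alternative settings: at 0.25 with library-name blocks, 0.33 without 0 h replicate 1, 0.36 without 0 h replicate 2 and 0.27 without 5 day replicate 3. The gene overlaps genes on the opposite strand, among them Ripk1 with 263 to 466 counts at 5 days and 182 or more at 0 h, and the strand setting of the counting is not given in the sources used here.

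Serpini1 encodes neuroserpin, which inhibits tissue plasminogen activator and is made mainly by neurons. It had 6, 8 and 2 counts at 5 days and 9, 11 and 12 counts at 0 h, too few to be tested. With counts summed over the libraries of a time and divided by their summed scaled totals, the ratio of 5 days over 0 h was 0.533. Its 95% exact counting interval was 0.273 to 1.0 (counting error only). Every 0 h library was above every 5 day library. Marker genes of retinal neurons other than photoreceptors also had lower sums, 54.6 to 74.9 CPM at 5 days and 209 to 243 CPM at 0 h, and their part in this difference was not tested.

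Among the inhibitors outside the serpin family, A2m was higher and Cst3, Spint2 and Wfdc1 were lower at 5 days. A2m encodes alpha-2-macroglobulin, whose protease complexes are taken up through the receptor Lrp1. It had 86.7, 94.9 and 144.4 CPM in the 5 day libraries, against 10.5, 11.3 and 22.9 CPM in the 0 h libraries. As for Serpinf1, replicate 3 was the highest at each time, and the groups did not overlap. The means were 108.7 ± 31.2 CPM at 5 days and 14.9 ± 6.93 CPM at 0 h (SD, n = 3 each), with a log2 fold change of 2.87 (SE 0.27).

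Wfdc1, a secreted protein with a whey acidic protein domain, fell furthest. It had 2.86, 2.51 and 3.07 CPM at 5 days, against 17.4, 19.5 and 20.5 CPM at 0 h. The libraries of each time lay close together and the groups were far apart. The log2 fold change was -2.76 (SE 0.22), a level 6.76-fold lower at 5 days.

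Spint2 is a Kunitz inhibitor of the cell surface that restrains matriptase and hepatocyte growth factor activator. It had 28, 22.1 and 25.1 CPM at 5 days, against 62.9, 64.6 and 72.7 CPM at 0 h, with no overlap. The log2 fold change was -1.42 (SE 0.12), a level 2.67-fold lower at 5 days.

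Cst3 encodes cystatin C, a secreted inhibitor of cysteine cathepsins. It had 320.8, 259.8 and 251.7 CPM at 5 days, against 355, 384.3 and 444.8 CPM at 0 h. The highest 5 day library lay just under the lowest 0 h library. The log2 fold change was -0.51 (SE 0.12).

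Slpi, a secreted inhibitor of neutrophil elastase and cathepsin G, had 0, 1 and 1 count at 5 days and none at 0 h. It was not measurable at this depth at either time. Marker genes of neutrophils summed to 16.1 to 29.1 CPM at 5 days and 0.119 to 0.329 CPM at 0 h. Of 12 neutrophil markers 3 were tested, and all 3 passed the filter through the 5 day libraries only, so no count of calls is given. Of the 12, Ly6g, Mpo, Elane and Camp had 0 counts in every library. The others had more counts at 5 days than at 0 h. Csf3r led with 352 counts against 5, followed by S100a9 with 51 against 0 and Cxcr2 with 43 against 0.

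Of the 10 inhibitors, 7 passed the filter on low counts, and of these 4 were called higher and 3 lower at 5 days. Across all tested genes 47.6% were called, 25.1% higher and 22.5% lower. The libraries of the 2 times did not overlap for 7 of the 7, against 58.1% of all tested genes. The choice of genes used this contrast, so nothing is read from these counts. The other 3 (Serpina3g, Slpi and Serpini1) were too low to be tested. Summed over all 10 genes, the inhibitors took 0.516 to 0.963% of gene counts at 5 days and 0.0485 to 0.0605% at 0 h.

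The libraries of a time differed more for Serpina3n, Serpinf1 and A2m than for the inhibitors that fell. At 5 days the coefficient of variation was 34.7% for Serpina3n, 28% for Serpinf1 and 28.7% for A2m, against 13.6% for Cst3, 11.8% for Spint2 and 9.97% for Wfdc1. At 0 h it was 15.6% for Serpina3n, 37.8% for Serpinf1 and 46.5% for A2m, against 11.6% for Cst3, 7.86% for Spint2 and 8.37% for Wfdc1. Serpina3n was thus close to Cst3 at 0 h, and the value of Serpinf1 rests on 7, 7 and 13 counts. Replicate 3 at 5 days moved 1 way for Serpina3n and the opposite way for Serpinf1 and A2m. Relative to the mean of the other 5 day libraries, on the log2 scale, it was at -0.97 for Serpina3n, 0.63 for Serpinf1 and 0.67 for A2m.

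The same library stood out in its markers. The 5 day sums of lens fiber markers were 10189, 15076 and 4420 CPM, lowest in replicate 3, and those of lens epithelium markers were 29790, 33915 and 19289 CPM, again lowest there. Photoreceptor sums were 76.1, 48.5 and 129.2 CPM and those of pigment epithelium, iris and ciliary body 13.7, 23.2 and 48 CPM, highest in replicate 3. Chosen after their values were seen, the epithelial keratins Krt14 and Krt5 had 0.318, 0.251 and 45.8 CPM and 0.159, 0.251 and 19.9 CPM at 5 days, nearly all of it in replicate 3. Their list, corneal and surface epithelium, summed to 469.6, 639.7 and 416.7 CPM at 5 days, lowest in replicate 3. Most of these sums was Aldh3a1, with 467.1, 637.9 and 345.6 CPM. Trp63 and Dsg1a of the list were also highest in replicate 3, and Krt12 was not. Dcn, a fibroblast proteoglycan, was picked in the same way. It had 21, 11.4 and 36.1 CPM at 5 days and 0.135, 0.549 and 5.6 CPM at 0 h. Replicate 3 was its highest library at each time, as for Serpinf1 and A2m. The fibroblast list was mixed. At 5 days Col1a2, Lum and Pi16 were also highest in replicate 3, and Pdgfra, Gsn and Clec3b were lowest there. Fibroblast sums were 994.3, 1045 and 1351 CPM at 5 days and 792.4, 869.8 and 798.7 CPM at 0 h. At 0 h, replicate 3 was the highest library for all 7 tested inhibitors, and its sum of pigment epithelium, iris and ciliary body markers was 125.7 CPM against 63 and 53.5 CPM in replicates 1 and 2. The part of these cells in the spread of the inhibitors was not tested. Without 5 day replicate 3 or any other library, Serpina3n stayed between 8.77 and 9.25 on the log2 scale, a range that also covers the other settings tried.

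**Figure D3:**
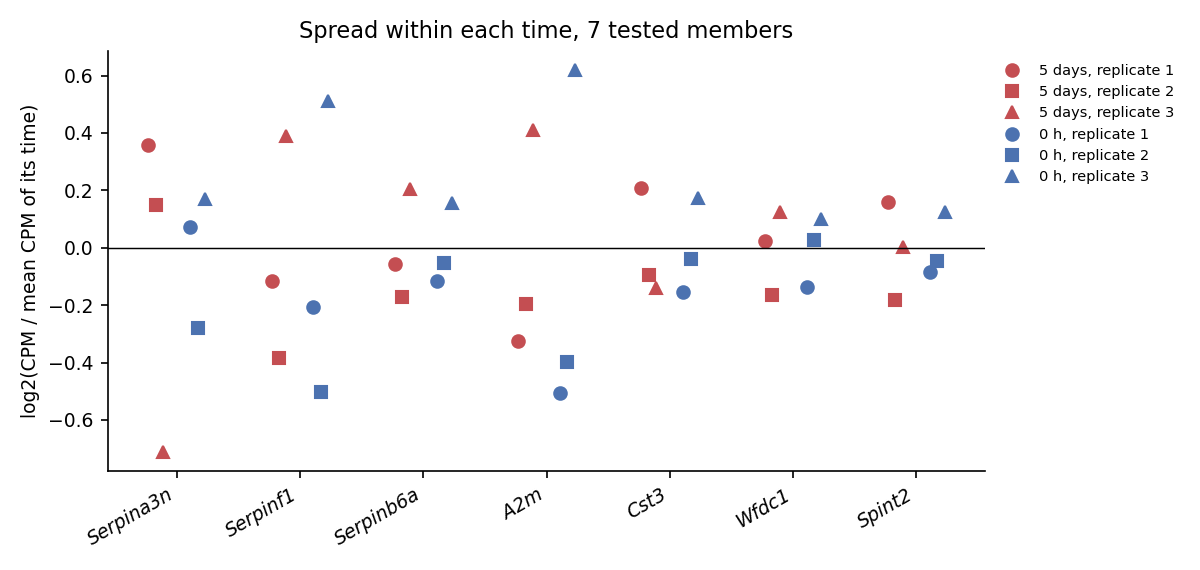
CPM of each library over the mean CPM of its own time, in log2 units, for the 7 tested inhibitors, with 5 day libraries left of 0 h libraries. Replicate 3 at 5 days is the lowest library for Serpina3n and the highest for Serpinf1 and A2m.

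Levels of different genes were compared per length, as RPKM, the CPM divided by the exon length in kilobases. At 5 days Serpina3n led with 3364 ± 1169 RPKM, followed by Cst3 with 219.2 ± 29.8, Serpinf1 with 57 ± 15.9, A2m with 15.5 ± 4.44, Serpinb6a with 10.8 ± 1.49, Spint2 with 5.5 ± 0.648 and Wfdc1 with 1.83 ± 0.182 RPKM (SD, n = 3 each). The ranges of A2m and Serpinb6a overlapped, and no other neighbours did. At 0 h the order was Cst3 with 311.8 ± 36.2, Spint2 with 14.7 ± 1.15, Wfdc1 with 12.4 ± 1.04, Serpinb6a with 8.23 ± 0.829, Serpina3n with 6.58 ± 1.03, A2m with 2.12 ± 0.987 and Serpinf1 with 0.461 ± 0.174 RPKM. No neighbours overlapped at 0 h. The most abundant inhibitor transcript was therefore Serpina3n at 5 days and Cst3 at 0 h. With the longest transcript as length, Serpinb6a stood above A2m at 5 days, with 26.7 against 23.6 RPKM, and above Wfdc1 at 0 h, with 20.3 against 14 RPKM.

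**Figure D4:**
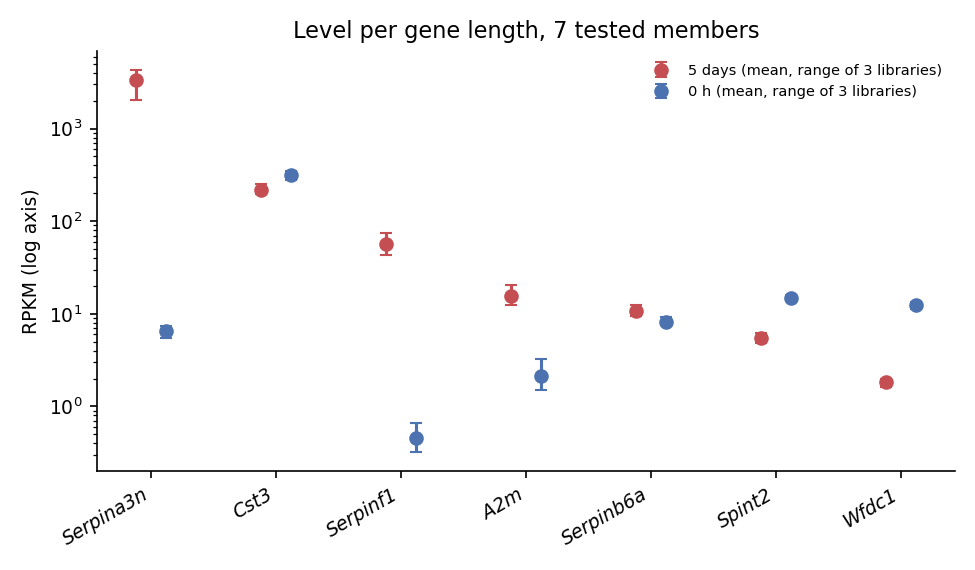
Level per length of the 7 tested inhibitors, in RPKM on a log axis, with 5 days left of 0 h; points are means and bars the range of 3 libraries. Serpina3n is at the top at 5 days (mean 3364 RPKM) and in the middle of the order at 0 h (6.58 RPKM), and Cst3 leads at 0 h (311.8 RPKM).

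The genes whose pattern over the 6 libraries was most like that of Serpina3n, by Pearson r of log2 CPM among 5081 genes, were Cemip (0.9987), Uhrf1bp1l (0.9986), Gnptab (0.9985), Cdkn2b (0.9984) and Nav3 (0.9982). These values mostly reflect the difference between the times, which all 6 libraries share, and are a description. The folds of these genes were far from alike: the log2 fold change was 3.77 for Cemip, 3.5 for Cdkn2b, 2.7 for Nav3, and 0.84 for both Uhrf1bp1l and Gnptab. Cemip, which takes part in breaking down hyaluronan, had 72.1, 57.9 and 54.9 CPM at 5 days, against 4.58, 3.95 and 5.01 CPM at 0 h.

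Other inhibitors moved in both directions. The counts of each list below stand against 25.1% called higher and 22.5% called lower over all tested genes. Of 63 other serpins, 8 were tested, 4 were called higher and 3 lower; their median was 0.64 on the log2 scale, against -0.01 over all tested genes, and 32 had no count in any library. Serpinh1, the collagen chaperone of the endoplasmic reticulum, rose to 482.3 CPM at 5 days, against 233.9 CPM at 0 h (log2 fold change 1.04, SE 0.14, edgeR quasi-likelihood adjusted p = 7.54e-05). Serpind1, heparin cofactor II, fell to 7.05 CPM at 5 days, against 19.8 CPM at 0 h (log2 fold change -1.50, SE 0.28, edgeR adjusted p = 0.000813). Serpina3e-ps, described above, passed the filter through the 5 day libraries only, and of the other 7 tested genes 3 were called higher and 3 lower.

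The cystatin family had 1 tested gene of 20, Cstb, an intracellular inhibitor of cathepsins. Cstb rose to 14 CPM at 5 days, against 5.38 CPM at 0 h (log2 fold change 1.38, SE 0.21, edgeR adjusted p = 0.00021), whereas Cst3 was lower at 5 days. Of 39 genes with whey acidic protein, Kunitz or Kazal domains, 9 were tested, 3 were called higher and 4 lower, with a median of -0.37. Of these, 1 called higher (Spint1) passed the filter through the 5 day libraries only and 1 (Wfikkn2) through the 0 h libraries only. Spint1, a relative of Spint2 with the same known targets, had 19.5 CPM at 5 days and 0.164 CPM at 0 h (log2 fold change 6.79, SE 0.49). It passed the filter through the 5 day libraries only, its 0 h level rests on 4 counts, and the value was 7.99 without 0 h replicate 3. Spock3, a matrix proteoglycan with a Kazal-like domain, fell to 4.68 CPM at 5 days, against 28.7 CPM at 0 h (log2 fold change -2.56, SE 0.31, edgeR adjusted p = 2.69e-05). App, whose longer isoforms carry a Kunitz domain, had 3018 CPM at 5 days and 3895 CPM at 0 h (log2 fold change -0.37, SE 0.12, edgeR adjusted p = 0.0273), and lost its call in 6 settings, among them total library size (adjusted p = 0.114).

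The alpha-macroglobulins and the receptors that clear inhibitor complexes had 7 tested genes of 11, of which 2 were called higher and 2 lower, with a median of -0.22. Without 5 day replicate 3, 4 were called lower. Lrp1, the receptor that takes up alpha-2-macroglobulin complexes, rose to 2753 CPM at 5 days, against 1523 CPM at 0 h (log2 fold change 0.85, SE 0.13, edgeR adjusted p = 0.000215). Cd109, a membrane-anchored relative of A2m that passed the filter through the 5 day libraries only, had 54 CPM at 5 days and 2.18 CPM at 0 h (log2 fold change 4.61, SE 0.24). Lrp2, a scavenger receptor of absorptive epithelia, fell to 22.1 CPM at 5 days, against 62.8 CPM at 0 h (log2 fold change -1.49, SE 0.28, edgeR adjusted p = 0.000768).

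A list of 34 serine proteases was drawn up by hand, and not each is a known target of the inhibitors here. Of these, 8 were tested and 15 had no count in any library. Among the tested genes, 4 (F7, F10, Prss56 and Plau) passed the filter through the 5 day libraries only. The other 4 (Plat, Htra1, Htra3 and Prss23) were called higher, against 25.1% of all tested genes. Plau, urokinase, had 102.4 CPM at 5 days and 0.666 CPM at 0 h (log2 fold change 7.29, SE 0.40), and 7.94 without 0 h replicate 1. Htra1, a secreted protease of the matrix, rose to 1209 CPM at 5 days, against 494.4 CPM at 0 h (log2 fold change 1.29, SE 0.11, edgeR adjusted p = 1.54e-06). Plat, tissue plasminogen activator and the target of neuroserpin, was chosen after its values were seen. It had 253 CPM at 5 days, against 15.8 CPM at 0 h (log2 fold change 4.0, SE 0.20). The known targets of Serpina3n and Slpi in leukocyte granules, Elane, Ctsg and Gzmb, also chosen after their values were seen, had 0 counts in every library. Prtn3, a further granule protease of the list, had 10, 4 and 30 counts at 5 days and none at 0 h, and was not tested.

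Of 11 cysteine cathepsins and legumain, 10 were tested, 7 were called higher and 1 lower, with a median of 1.58. Over all tested genes 25.1% were called higher and 22.5% lower. Ctsk, 1 of the 7, passed the filter through the 5 day libraries only. Ctsc, which activates granule serine proteases, rose to 989.1 CPM at 5 days, against 21.7 CPM at 0 h (log2 fold change 5.50, SE 0.16, edgeR adjusted p = 7.92e-10). Ctss, a cathepsin of antigen-presenting cells that cystatin C inhibits, rose to 178.9 CPM at 5 days, against 3.28 CPM at 0 h (log2 fold change 5.76, SE 0.24, edgeR adjusted p = 6.69e-09). Ctsf fell to 51.8 CPM at 5 days, against 108.5 CPM at 0 h (log2 fold change -1.07, SE 0.12, edgeR adjusted p = 1.64e-05). Macrophage markers were also higher at 5 days. Ptprc, the leukocyte antigen CD45, had 41.5 ± 3.81 CPM at 5 days and 1.23 ± 0.504 CPM at 0 h (SD, n = 3 each). It passed the filter through the 5 day libraries only. Lyz2, which did not pass in that way, had 241.8 and 5.56 CPM. The part of macrophages in the cathepsin values was not tested.

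Serpina3n is a known target of the cytokine pathway that runs from the interleukin-6 family through STAT3. Of 41 genes of the acute phase and of this pathway, 27 were tested, and 7 of these passed the filter through the 5 day libraries only, Il6 among them. Of the other 20, 16 were called higher and 3 lower, against 25.1% and 22.5% of all tested genes. Il6 had 190 counts at 5 days and none at 0 h, at least 67.5-fold higher against 3 counts over the 0 h group. Cp, ceruloplasmin, rose to 1112 CPM at 5 days, against 789.6 CPM at 0 h (log2 fold change 0.49, SE 0.11, edgeR adjusted p = 0.00217). Cntfr, the receptor of ciliary neurotrophic factor, fell to 8.6 CPM at 5 days, against 32.9 CPM at 0 h (log2 fold change -1.92, SE 0.19, edgeR adjusted p = 4.25e-06). The other receptors of the interleukin-6 family in the list were named after their values were seen. Il6st was not called (log2 fold change -0.13). Lifr (-0.48) and Il11ra1 (-1.0) were called lower and Osmr (2.2) higher. Il6ra was also higher but passed the filter through the 5 day libraries only. Socs3, the feedback inhibitor of the pathway, and Stat3 itself were also chosen after their values were seen. Socs3 had 159 CPM at 5 days, against 12.2 CPM at 0 h (log2 fold change 3.70, SE 0.14). Stat3 had 190.5 CPM at 5 days, against 104.9 CPM at 0 h (log2 fold change 0.86, SE 0.10). The part of this pathway in the rise of Serpina3n was not tested.

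**Figure D5:**
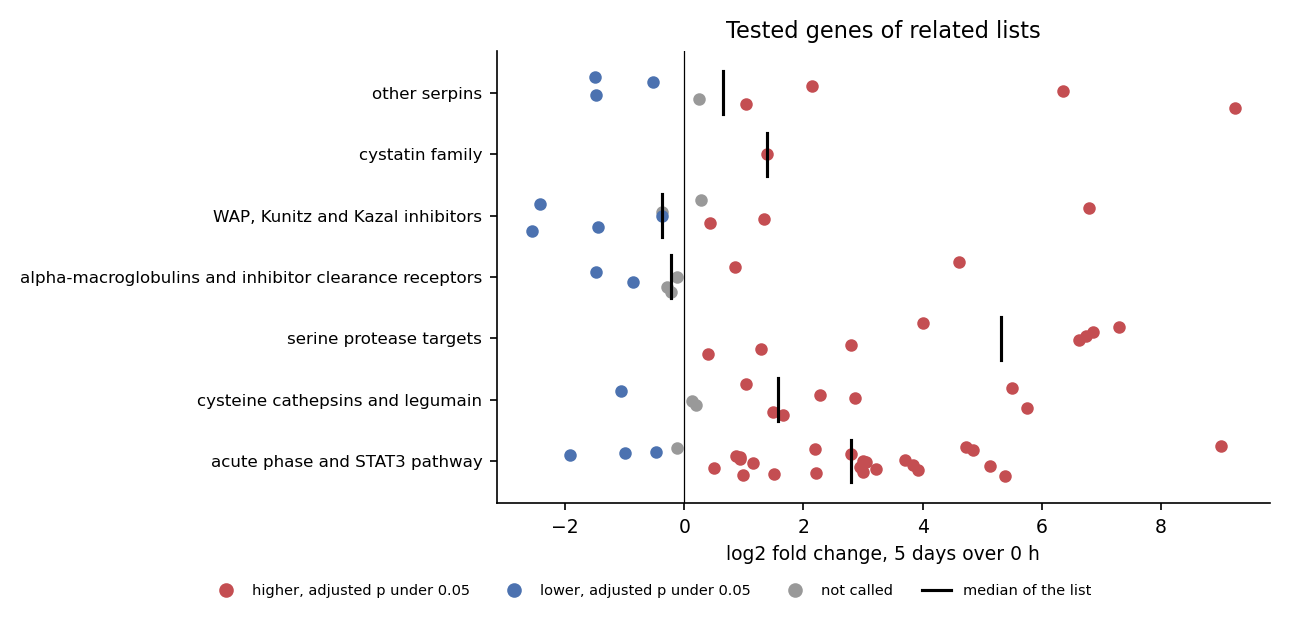
Log2 fold change of 5 days over 0 h for each tested gene of the 7 lists of related inhibitors, proteases and pathway genes, with a bar at each list's median; red genes were called higher, blue lower and grey not called. Of the 8 tested serine proteases, 4 passed the filter on low counts through the 5 day libraries only; the genes with whey acidic protein, Kunitz or Kazal domains lie on both sides of 0 with a median of -0.37.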

How the data were processed

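The authors deposited 1 table per library with the raw count of each Ensembl gene. HISAT2, HTSeq, edgeR and GRCm39 are named in the submitters' processing notes. For strand setting, HTSeq mode, gene annotation and versions, nothing is stated (not given in the sources used here). Per the labels' protocols, total RNA went into libraries made with a stranded kit for low input (SMARTer Stranded Total RNA-Seq, Pico version). The 5 summary entries per library (32.26 to 42.55% of reads) were left out. Symbols (91.23% of genes), chromosomes and exon lengths came from GENCODE M21 (GRCm38) by Ensembl identifier.

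Groups came from sample titles. The library name of 5 day replicate 3 carries neither genotype nor time. Genes were kept by edgeR's default filter (14676 genes), scaled by TMM and tested by quasi-likelihood F-test in edgeR 4.0.16 under R 4.3.3, Benjamini-Hochberg adjusted over all tested genes at 0.05. CPM and RPKM (union of exons) were computed here. The script was tested on simulated data. The inhibitors and all gene lists were chosen with earlier results of these data known. Genes named as the largest rise or fall of a list were picked on this contrast too. Their adjusted p-values are a description only. Named genes are the 10 inhibitors, Serpina3 genes with at least 10 counts, the 5 genes most like Serpina3n, 5 cell markers, and from each list the called genes of highest expression, largest rise and largest fall, and other names were chosen after values were seen. Alternatives were DESeq2 size factors, total library size, no filter, a minimum of 2 CPM in 3 libraries, limma-voom (limma 3.58.1), DESeq2 1.42.0, replicate blocks by title or library name, and each library left out. Intervals and floors cover counting error only.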

Additional observations from a re-analysis of the deposited data

How the results depend on the processing

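Over 14 alternatives no inhibitor changed direction, and 6 of the 7 tested inhibitors kept their call in all 14. Serpinb6a was called in 10, with log2 fold changes of 0.25 to 0.52. Without a filter on low counts, 7 other serpins, 2 cystatins and 5 genes with whey acidic protein, Kunitz or Kazal domains were called higher. With each library left out in turn, 1 to 2 cystatins were called higher and 2 to 4 genes of the alpha-macroglobulin list lower. The replicate block by library name gave 4 of that list lower and 5768 called genes in all, and the replicate block by title gave 6738, against 6984 without a block. Libraries of the 2 times with the same title number did not deviate together (correlations of 0.0385, -0.0897 and 0.0434). With 3 libraries per time, these values cannot show whether pools share mice, and library-name numbers were not compared in this way. The main test left pairing out because the labels do not say that numbers pair pools. Scaling by total library size moved the median of all genes by 0.13 on the log2 scale, and 62.9% of calls were then higher, against 52.7%. With the longest transcript as length, the mean levels were 73.4 RPKM for Serpinf1 at 5 days, 26.7 at 5 days and 20.3 at 0 h for Serpinb6a, 23.6 and 3.24 for A2m, 322.6 and 459 for Cst3, 2.05 and 14 for Wfdc1, and 7.71 and 20.5 for Spint2. Depth left Serpina3g, Slpi and Serpini1 untested.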

Other observations

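Genes of the acute phase list that are strongly induced in liver behaved unevenly in the capsules; the names here were chosen after their values were seen. Lcn2, which binds bacterial iron carriers, had 18.5, 18.5 and 53.2 CPM at 5 days, against 0.673, 2.63 and 2.86 CPM at 0 h, and C3, the central complement component, had 71.3, 59.5 and 156.9 CPM at 5 days, against 10.6, 12.6 and 13.9 CPM at 0 h. Both were highest in 5 day replicate 3, the library in which Serpina3n was lowest of its time. Lcn2 passed the filter on low counts through the 5 day libraries only, as did Hp, with 78 counts at 5 days and 2 at 0 h. The fibrinogen chains Fga, Fgb and Fgg and the acute phase genes Saa2 and Orm2 had 0 counts in every library. Saa1, Saa3, Orm1 and Lrg1 had at most 11 counts over the 5 day libraries and none at 0 h. Hpx had 22 counts at 5 days and 16 at 0 h, and these last genes were not tested.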
